A study of Drosophila melanogaster with 30 samples.

Results

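The genes that make and destroy the moulting hormone ecdysone were followed in whole *Drosophila* larvae. The set held 8 genes, chosen by name for their known roles: *nvd*, *sro*, *spok*, *phtm*, *dib*, *sad* and *shd*, which turn cholesterol into the active hormone, and *Cyp18a1*, which inactivates it. Symbols were matched to the identifiers of the count table through the reference annotation, and 7 of the 8 genes had counts among its 17713 features. The current identifier of *nvd* (FBgn0287185) matched no feature, so *nvd* was not analysed here, and 6 of the 7 synthesis genes remained. No nucleotide or protein sequence is shown.

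Insects cannot make sterols, so every molecule of ecdysone starts from cholesterol taken from food. Cells of the prothoracic gland, a part of the larval ring gland, carry out the early steps: *nvd* encodes the enzyme that first desaturates cholesterol, *sro* (a short-chain dehydrogenase) and *spok* (a cytochrome P450-type oxygenase) act in the incompletely described "black box" steps, and *phtm*, *dib* and *sad* encode oxygenases that add the last hydroxyl groups before ecdysone is released. Peripheral tissues such as the fat body and gut then convert ecdysone to its active form with the product of *shd*. *Cyp18a1* encodes an oxygenase that inactivates ecdysteroids. Pulses of the hormone time the moults and the entry into metamorphosis.

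All animals carried 1 copy each of *Tub-GAL80TS* and *Tub-GAL4*, a ubiquitous driver that is held silent in the cold and released at 29 °C, so any knockdown acted in every tissue rather than in the gland alone. Controls carried the driver only, *HR3-RNAi* animals added UAS-Hr3-RNAi, and *TOR-RNAi* animals added UAS-Tor-RNAi. Neither knockdown was set against a driver with an unrelated UAS transgene, and both were compared with the same controls. Hr3 is a nuclear receptor and Tor a nutrient-responsive kinase. By the sample labels, the shift to 29 °C came 111 h after egg collection, and at 120 h larvae went onto food poor in cholesterol (1.2 µg/mL). After 10 h there, they spent another 10 h on the same food (low) or on food with 80 µg/mL cholesterol (refed). The study's methods give later hours for the same steps. Each of the 6 groups had 5 replicates of 5 pooled late-stage larvae, 30 libraries in all. The sources describe the replicates as separate samples of a group and do not say that they came from separate crosses, so p-values measure the spread between these pools.

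Total counts per library ranged from 19744564 to 33510753. A counting floor of 3 counts per library was used, which corresponded to 0.0895 to 0.152 CPM (counts scaled to the library total) depending on the library. Floors cover counting error only. The targeted gene *Tor*, listed as *mTor*, was lower in *TOR-RNAi* animals on low food (log2 fold change -0.51, standard error 0.104, edgeR adjusted p = 0.00283) and after refeeding (-0.79, standard error 0.105, adjusted p = 1.15e-05). *Hr3* had only 2 to 17 counts per library, and its log2 fold changes in *HR3-RNAi* animals, -0.28 on low food and -0.50 after refeeding (standard errors 0.412 and 0.424), were not past the threshold (edgeR adjusted p = 0.916 and 0.545), so this knockdown could not be checked at this depth. Libraries differed in the summed level of *roX1* and *roX2*, RNAs made in males, from 3.28 to 198 CPM, and in 4 salivary glue genes (*Sgs3*, *Sgs5*, *Sgs7* and *Sgs8*), from 0 to 1934 CPM. Summed markers of fat body (at least 76524 CPM), muscle (at least 9234 CPM) and midgut (at least 5271 CPM) were present in every library.

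The members covered a wide range of levels. Per gene length (FPKM, fragments scaled to gene length and library total), *shd* was the highest of the 7 in all 30 libraries, with group means from 21.8 FPKM (control low) to 26.5 FPKM (*HR3-RNAi* refed). *dib* was the lowest in all 30, with group means from 0.0809 to 0.174 FPKM. Between them, *sro* had group means from 3.25 to 11.5 FPKM, *spok* from 2.97 to 4.35, *phtm* from 2.42 to 3.23, *sad* from 1.96 to 2.52 and *Cyp18a1* from 1.19 to 1.99. In control low animals, *spok* (4.07 ± 1.03 FPKM, SD, n = 5), *sro* (3.25 ± 1.33) and *phtm* (3.03 ± 0.465) lay within 1.33 FPKM, the SD of *sro*, of each other. In the other 5 groups, refed controls included, the mean of *sro* ranked second, with 4.08 ± 1.22 FPKM in refed controls, 9.22 ± 3.02 and 11.5 ± 2.57 in low and refed *HR3-RNAi* animals, and 5.08 ± 3.73 and 5.68 ± 2.87 in low and refed *TOR-RNAi* animals. *spok* lay above *phtm* in 27 of 30 libraries, *phtm* above *sad* in 25, and *sad* above *Cyp18a1* in 27. The gland genes were thus measured from few transcripts in a whole animal. A difference could come from the number of gland cells or from RNA per cell, which were not tested and cannot be told apart in bulk samples. The gland genes did not all move together. On low food the ratio of the *HR3-RNAi* mean to controls was 2.78 for *sro*, 1.31 for *dib*, 1.02 for *spok*, 0.906 for *sad* and 0.847 for *phtm*.

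**Figure D1:**
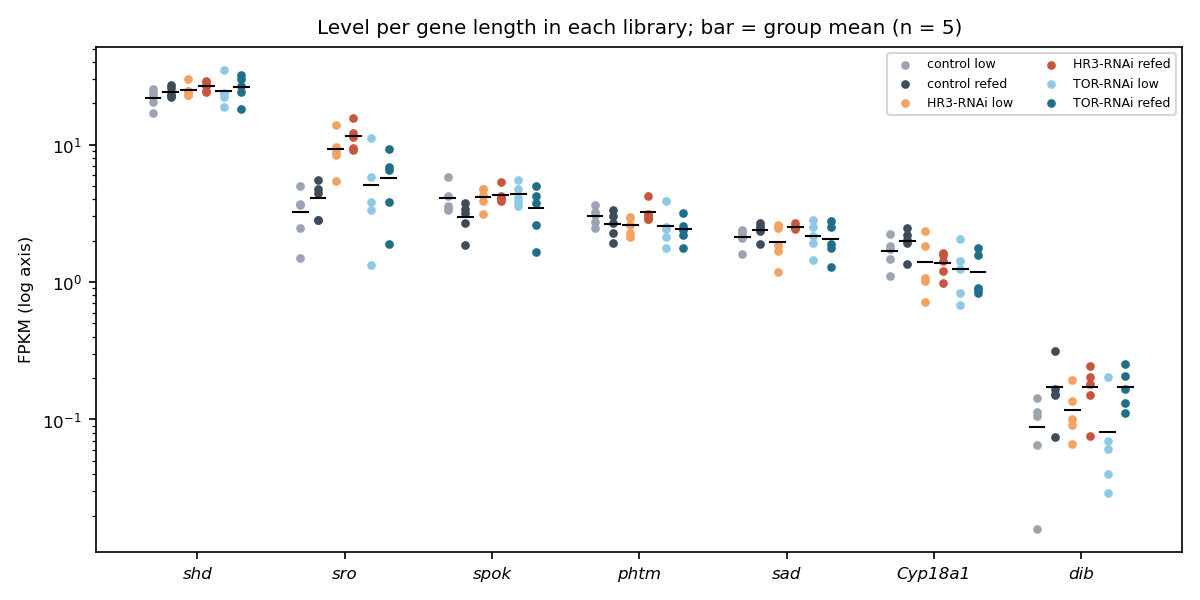
FPKM of the 7 genes in each of 30 libraries (log axis), coloured by group, with a bar at each group mean (n = 5). *shd* lies between 17.1 and 34.9 FPKM, *dib* lies below the other 6 genes in every library, and the 2 *HR3-RNAi* groups stand above the controls for *sro*.

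*sro* was the only member called by edgeR, and only in *HR3-RNAi* against control animals. A missing call does not show that a member was unchanged. In control low animals, replicates 1 to 5 had 6.03, 4.18, 1.82, 2.75 and 4.45 CPM of *sro*, and in *HR3-RNAi* low animals 11.5, 6.46, 15.3, 10.4 and 9.82 CPM. Every knockdown library was above every control library. After refeeding, the control libraries had 4.88, 3.33, 6.28, 5.46 and 3.19 CPM and the *HR3-RNAi* libraries 17.2, 13.2, 10.7, 14.7 and 10.9 CPM, again without overlap. The share of all genes without overlap was not counted. An exact permutation p under 0.05 was reached by 12.6% of all genes tested on low food and 23.4% after refeeding.

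The mean *sro* level was thus 2.78 times that of controls on low food (10.7 ± 3.18 against 3.85 ± 1.63 CPM, SD, n = 5 each, two-sided exact permutation p = 0.00794, which no split of 5 against 5 can go below). It was 2.88 times that of controls after refeeding (13.3 ± 2.72 against 4.63 ± 1.35 CPM, exact permutation p = 0.00794). In the fit across all genes, the log2 fold change was 1.52 on low food (standard error 0.418, edgeR adjusted p = 0.0472) and 1.5 after refeeding (standard error 0.416, edgeR adjusted p = 0.0372). *sro* was the only one of 7 members called on either diet, beside 2.61% of all genes tested on low food and 3.97% after refeeding. The counts of *sro* ranged from 38 to 522 over the 30 libraries.

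Both adjusted values lay close to the threshold. On low food the call was lost without *HR3-RNAi* replicate 1, 3, 4 or 5 or control replicate 2, 3, 4 or 5 (log2 fold change 1.31 to 1.69, adjusted p 0.0401 to 0.165 over the 10 omissions). After refeeding it was lost without *HR3-RNAi* replicate 1, 2 or 4 or control replicate 1, 2 or 5 (log2 fold change 1.35 to 1.62, adjusted p 0.0450 to 0.109). With DESeq2, the adjusted p was 0.00898 on low food and 0.00710 after refeeding.

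*Fbp1*, a fat body gene whose values are given with the relations within groups, was above every control in 4 of 5 *HR3-RNAi* libraries on low food. It overlapped with controls after refeeding, and its part in the *sro* difference was not tested. Of the 6 fat body markers, *Fbp1* included, 6 had a log2 fold change above 0 in *HR3-RNAi* animals on low food (median 0.21). After refeeding 2 of the 6 did (median -0.03). The 4 salivary glue genes also differed on low food in the direction of *sro*, with summed levels of 0.358 to 17.4 CPM (median 1.30) in controls and 0 to 1934 CPM (median 20.4) in *HR3-RNAi* animals. Of the 4, 0 were called by edgeR (lowest adjusted p = 0.0729) and 4 had an unadjusted p under 0.05. After refeeding 0 of 4 had such a p and 0 had a log2 fold change above 0 (median -0.67). Summed levels of these genes were then 0.962 to 572 CPM (median 5.63) in controls and 3.61 to 196 CPM (median 100) in *HR3-RNAi* animals. Their part in the *sro* difference was not tested either.

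Relative to the other gland genes of the same animals, given as a description since the ratio was chosen after the levels were seen and restates them, *sro* had a mean log2 ratio to the summed CPM of *spok*, *phtm* and *sad* of -0.68 ± 0.579 in *HR3-RNAi* low and -2.33 ± 0.827 in control low animals (SD, n = 5). After refeeding the ratio was -0.55 ± 0.306 and -1.74 ± 0.526. In *TOR-RNAi* animals it was -1.85 ± 1.07 on low food and -1.35 ± 0.864 after refeeding, overlapping with controls.

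*sro* lies on chromosome 3R from 29794597 to 29795805 (BDGP6 annotation, plus strand, 2 exons), and overlaps *Rnb* on the opposite strand. The sources do not say whether counting used the strand, which also concerns *dib* (overlapping *wit*) and *sad* (overlapping *CG6962*). *Rnb* had a log2 fold change of 0.05 on low food and -0.09 after refeeding in *HR3-RNAi* animals (edgeR adjusted p = 0.939 and 0.579). As neighbours of *sro*, 6 genes were taken by start position, 3 on each side, leaving out genes with low counts. Of these 6, picked after the values of *sro* were seen, 0 were called in either comparison (lowest edgeR adjusted p = 0.461 and 0.420).

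In *TOR-RNAi* animals, *sro* spread widely. Replicates 1 to 5 had 11, 3.80, 4.28, 7.41 and 1.57 CPM on low food and 10.6, 7.86, 4.52, 2.31 and 7.53 CPM after refeeding. These ranges enclosed those of controls, and the log2 fold changes against controls, 0.61 on low food and 0.47 after refeeding (standard errors 0.417 and 0.415), were not past the threshold (edgeR adjusted p = 0.557 and 0.429).

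**Figure D2:**
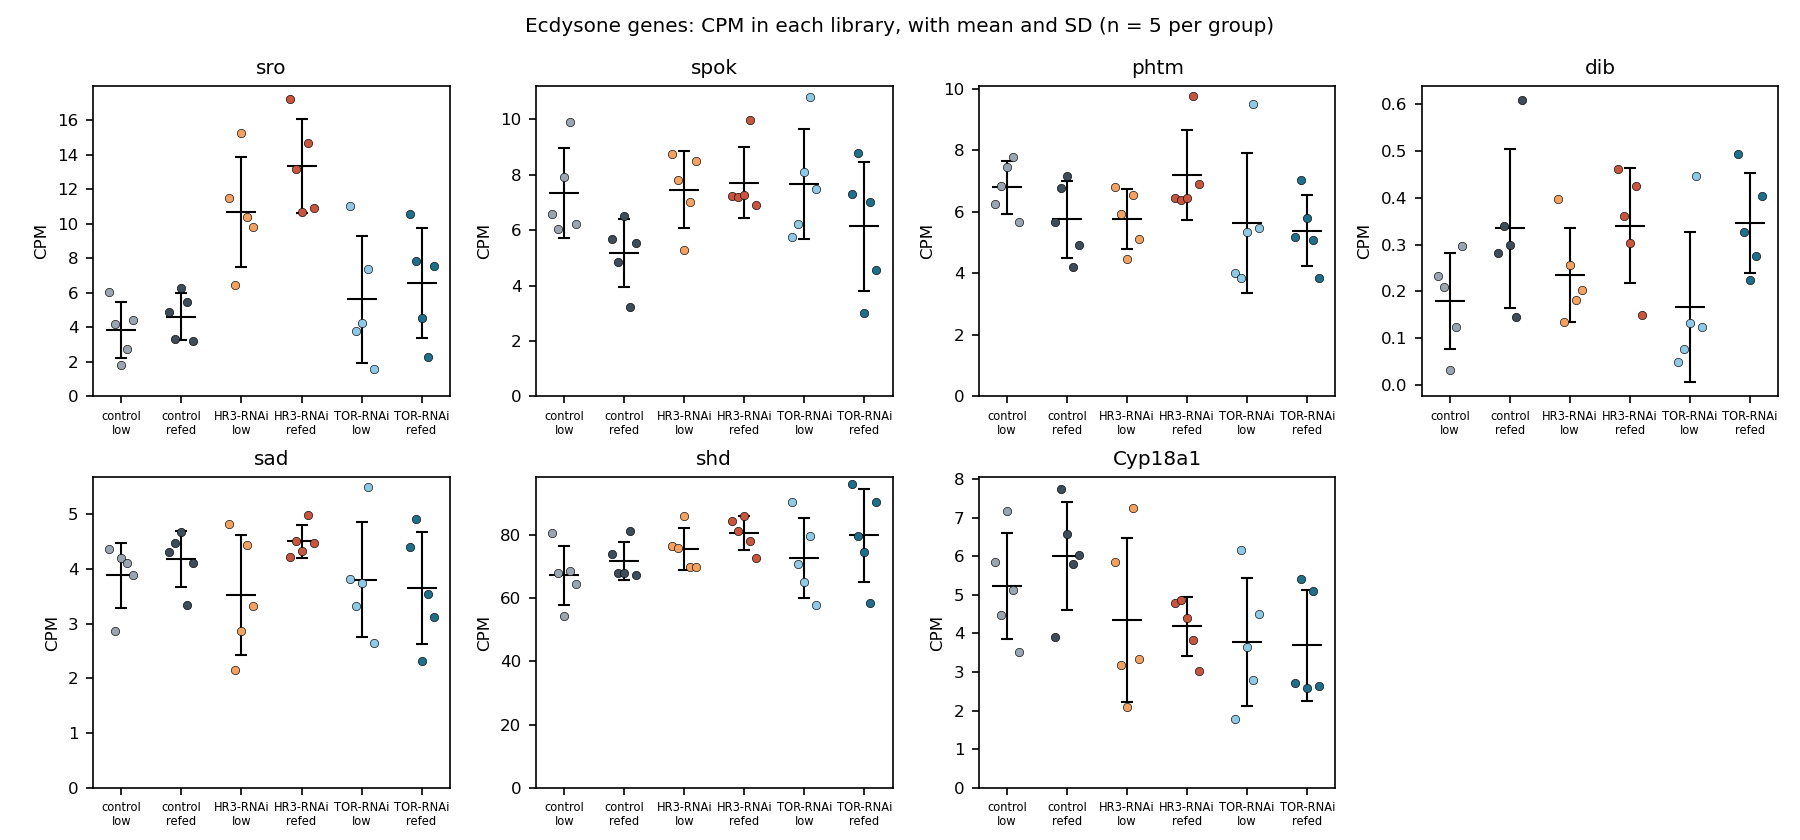
CPM of each gene in each library (points, 5 per group), with the group mean and SD, on axes that start at 0 or just below. For *sro*, the 10 *HR3-RNAi* libraries lie between 6.46 and 17.2 CPM and the 10 control libraries between 1.82 and 6.28 CPM. For the other 6 genes the control and *HR3-RNAi* low groups overlap.

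*spok* carries out a "black box" step beside *sro*. It lies on chromosome 3R from 3322810 to 3354486. In refed animals, controls had 5.69, 4.85, 6.50, 3.24 and 5.52 CPM and *HR3-RNAi* animals 7.21, 7.18, 7.26, 9.98 and 6.90 CPM. The groups did not overlap (exact permutation p = 0.00794), but the log2 fold change of 0.54 (standard error 0.231) was not past the threshold over all genes (edgeR adjusted p = 0.226). In that comparison 23.4% of all genes tested had an exact permutation p under 0.05, and the share without overlap was not counted. On low food, control libraries had 6.58, 6.03, 7.92, 9.90 and 6.23 CPM, which overlapped with 5.27 to 8.73 CPM in *HR3-RNAi* animals (log2 fold change 0.03, standard error 0.230, adjusted p = 0.994). In controls, *spok* was 7.33 ± 1.62 CPM on low food and 5.16 ± 1.23 CPM after refeeding (exact permutation p = 0.0238), with 1 refed library, replicate 3, inside the range of the low group. The log2 fold change of -0.44 (standard error 0.210) had an edgeR adjusted p of 0.361.

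*phtm* adds a side-chain hydroxyl group. It lies on the X chromosome from 18685766 to 18688433, with 104 bases between its end and that of *Cyp18a1* (18688538 to 18693042) on the opposite strand. In controls *phtm* had 6.27, 6.83, 7.46, 7.80 and 5.67 CPM on low food and 5.69, 6.79, 7.18, 4.2 and 4.91 CPM after refeeding. In *HR3-RNAi* animals it ranged from 4.46 to 6.80 CPM on low food and from 6.38 to 9.77 CPM after refeeding. In *TOR-RNAi* animals it ranged from 3.84 to 9.51 CPM and from 3.86 to 7.04 CPM. All these groups overlapped with the one they were compared with. Its lowest unadjusted p came from refeeding of *HR3-RNAi* animals (log2 fold change 0.34, standard error 0.140, edgeR adjusted p = 0.284).

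*sad* acts at the last gland step, and it lies on chromosome 3R from 11877235 to 11879754. The 5 refed *HR3-RNAi* libraries had 4.22, 4.51, 4.33, 4.99 and 4.47 CPM, close together, and the other groups spread more widely. Its group means lay between 3.52 and 4.50 CPM, and its 4 genotype contrasts between -0.23 and 0.07 on the log2 scale (standard errors 0.206 to 0.208).

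*dib*, which acts between *phtm* and *sad*, lies on chromosome 3L from 4062292 to 4064551. It was close to the counting floor, with 1 to 14 counts per library. Control low libraries had 6, 7, 1, 4 and 8 counts, control refed libraries 7, 10, 8, 3 and 12, and *TOR-RNAi* low libraries 1, 2, 3, 11 and 3. It did not pass the filter on low counts in the 3 diet fits, and its 4 genotype contrasts had standard errors of 0.464 to 0.612 on the log2 scale. The group means of 0.166 to 0.345 CPM were higher after refeeding in each genotype, and the low and refed groups overlapped (exact permutation p = 0.103 for control, 0.175 for *HR3-RNAi* and 0.0794 for *TOR-RNAi*). With CPM on TMM-scaled library sizes the unadjusted exact permutation p for *dib* in *TOR-RNAi* animals was 0.0476.

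*shd*, whose product makes the active hormone outside the gland, lies on chromosome 3L from 14614458 to 14622205. By the median over groups it had the smallest spread of the 7 genes, a coefficient of variation of 11.4% (6.60 to 18.4% within groups). Controls had 80.5, 68.0, 54.3, 68.6 and 64.5 CPM on low food and 74, 68.1, 68.0, 81.2 and 67.4 CPM after refeeding. Refed *HR3-RNAi* libraries had 84.5, 81.2, 86.0, 78.1 and 72.8 CPM and overlapped with the controls, with a mean 1.12 times as high (exact permutation p = 0.0476). In the fit across all genes the log2 fold change was 0.14 (standard error 0.143, edgeR adjusted p = 0.606). The diet contrasts of *shd* were 0.16 (control), 0.11 (*HR3-RNAi*) and 0.11 (*TOR-RNAi*) on the log2 scale (standard errors 0.101, 0.0845 and 0.194, lowest edgeR adjusted p = 0.506).

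*Cyp18a1*, the inactivating gene, passed the threshold over all genes in no comparison, and its mean was below that of controls in the 4 knockdown groups. Controls had 5.84, 4.48, 7.16, 5.14 and 3.52 CPM on low food and 3.91, 7.74, 6.58, 5.80 and 6.03 CPM after refeeding. Refed *TOR-RNAi* libraries had 2.71, 5.40, 2.58, 5.10 and 2.65 CPM, of which 3 were below every control. The mean ratio to controls was 0.614 (exact permutation p = 0.0476), and the log2 fold change was -0.75 (standard error 0.303, edgeR adjusted p = 0.0877). Without *TOR-RNAi* replicate 2 it became -0.97 with an adjusted p of 0.0422, and over the 10 omissions the adjusted p ranged up to 0.199. Refed *HR3-RNAi* libraries had 4.78, 4.87, 4.41, 3.82 and 3.03 CPM, a ratio of 0.696 to controls (exact permutation p = 0.0317), with a log2 fold change of -0.55 (standard error 0.301, edgeR adjusted p = 0.364). On low food the log2 fold changes were -0.26 (*HR3-RNAi*) and -0.45 (*TOR-RNAi*) (standard errors 0.301 and 0.302, adjusted p = 0.858 and 0.541).

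Of the 6 members tested by diet, edgeR called 0 after cholesterol refeeding in each genotype. At an unadjusted p under 0.05 there were 0 in controls, 1 in *HR3-RNAi* larvae (*phtm*) and 0 in *TOR-RNAi* larvae, and DESeq2 called 0 in each. The share of all genes called was 3.83% in controls, against 3.44% with *HR3-RNAi* and 0.562% with *TOR-RNAi*. The log2 fold changes of the 6 members ranged from -0.44 (*spok*) to 0.34 (*sro*) in controls, from -0.03 (*Cyp18a1*) to 0.37 (*sad*) with *HR3-RNAi*, and from -0.32 (*spok*) to 0.19 (*sro*) with *TOR-RNAi*. Their medians were 0.17, 0.22 and -0.05, beside -0.0021, -5.6e-05 and -0.0027 over all genes tested. Standard errors of the 6 members were 0.101 to 0.312 for control, 0.0845 to 0.294 for *HR3-RNAi* and 0.194 to 0.550 for *TOR-RNAi*, which limits the size of change that could be detected.

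In *TOR-RNAi* animals, 0 of 7 members were called against controls on low food and 0 after refeeding (edgeR, with 0 and 1 at an unadjusted p under 0.05, and 0 and 0 called with DESeq2). The share of all genes called was 3.71% and 17.7%. The median log2 fold change of the members was -0.01 on low food and 0.00032 after refeeding, beside 0.00048 and 0.056 over all genes. In *HR3-RNAi* animals the medians were 0.03 and 0.14, beside 0.01 and 0.03. For the interaction of diet with *HR3-RNAi* and with *TOR-RNAi*, 0 of 7 members were called and 0 had an unadjusted p under 0.05, with edgeR and with DESeq2. Over all genes edgeR called 0% in both (818 and 1111 genes at an unadjusted p under 0.05, and 31 and 119 called by DESeq2).

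**Figure D3:**
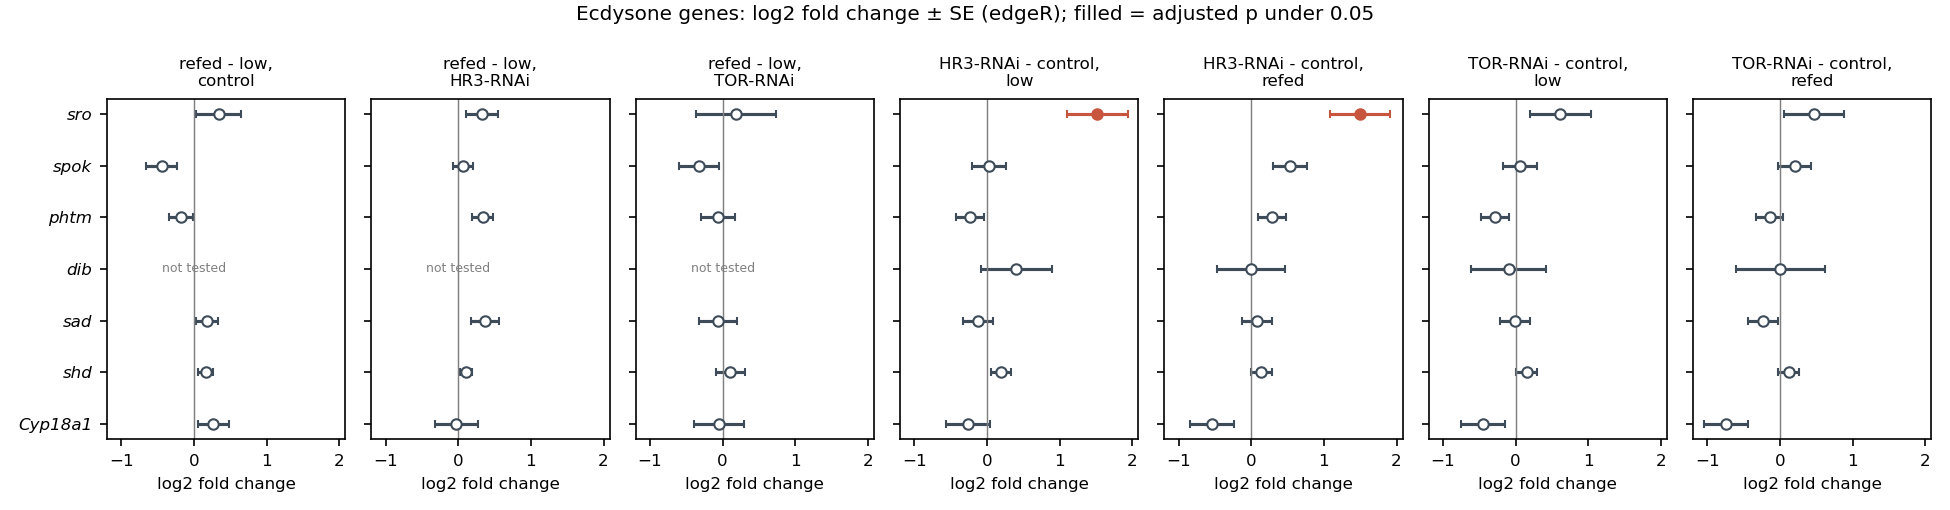
Log2 fold change of the 7 genes (points) from edgeR, with the standard error derived from its test (bars), in the 3 diet and 4 genotype comparisons. Filled points have an adjusted p under 0.05. *sro* in the 2 *HR3-RNAi* comparisons (1.52 and 1.5) is filled, every other point is open, and *dib* was not tested by diet.

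Tested 1 gene at a time by exact permutation of CPM, without adjustment, 7 of the 49 pairs of member and comparison had a p under 0.05. They were *spok* by diet in controls, *sro* on low food and *sro*, *spok*, *shd* and *Cyp18a1* after refeeding in *HR3-RNAi* against control animals, and *Cyp18a1* in refed *TOR-RNAi* animals. The list depended on the scaling. With TMM-scaled CPM or deposited FPKM, *spok* by diet in controls (exact permutation p = 0.103 and 0.0794) and *shd* in refed *HR3-RNAi* animals (0.135 and 0.135) no longer passed, while *phtm* by diet in *HR3-RNAi* animals did (0.0397 and 0.0476). The share of all genes tested that passed the same rule was 13.8%, 14.6% and 8.03% by diet in control, *HR3-RNAi* and *TOR-RNAi* animals. It was 12.6% on low food and 23.4% after refeeding for *HR3-RNAi*, and 12.9% and 26.9% for *TOR-RNAi*. The 49-pair count fell to 3 without control refed replicate 2 or replicate 5 and to 4 without control refed replicate 3.

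Within groups, some pairs of members varied together from pool to pool. For this, levels were taken as log2(CPM + 0.5), the mean of each group was subtracted, and 49 relations were computed over the 30 libraries with 100000 permutations within groups. They were chosen after the levels were seen, and the libraries share depth and composition effects. *spok* varied with *phtm*, with a Pearson's r of 0.645 and a Spearman's rho of 0.680 (permutation p = 0.00053 and 0.00025, adjusted p = 0.00519 and 0.00306). *spok* also varied with *sad* (r = 0.656, rho = 0.638, permutation p = 0.00094 and 0.00118, adjusted p = 0.00768 and 0.00964). Without the 2 libraries farthest from the median of *spok*, r was 0.773 and 0.531. *phtm* and *sad* had r = 0.507 and rho = 0.543 (permutation p = 0.0143 and 0.00591, adjusted p = 0.0780 and 0.0414). Without the 2 libraries farthest from the median of *phtm*, that r was 0.380. *dib* had no relation past the threshold after adjustment, its largest r being 0.428 with *sad* (permutation, adjusted p = 0.109).

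Of the 5 gland genes measured, *phtm* and *spok* also varied with a gene of a neighbouring cell type of the ring gland, *Akh*, the adipokinetic hormone made by the corpora cardiaca. *phtm* and *Akh* had r = 0.725 and rho = 0.678 (permutation p = 0.0001 and 0.00021, adjusted p = 0.00163 and 0.00306, r = 0.584 without the 2 farthest libraries). *spok* and *Akh* had r = 0.643 and rho = 0.636 (permutation p = 0.00045 and 0.00086, adjusted p = 0.00519 and 0.00843, r = 0.537 without the 2 farthest). For *sad*, *dib* and *sro*, r with *Akh* was 0.384, 0.296 and -0.20 (permutation, adjusted p = 0.186, 0.373 and 0.527). Of all genes tested, 0.0739% had an r with *Akh* at least as large in size as *phtm*, and 0.534% as *spok*. For *jhamt*, the juvenile hormone enzyme of the corpus allatum, r with *phtm* was 0.624 and rho 0.50 (permutation p = 0.00359 and 0.0127, adjusted p = 0.0227 and 0.0694, r = 0.449 without the 2 farthest), a size that 5.09% of all genes tested reached with *jhamt*. *Akh* ranged from 1.38 to 4.36 CPM and *jhamt* from 0.546 to 2.14 CPM, so these are low counts.

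*sro* showed no detectable relation with *spok* or *phtm*. Its r was -0.06 with both *spok* and *phtm* (rho = -0.07 and -0.11, permutation p of r = 0.801 and 0.836 and of rho = 0.746 and 0.594). It instead varied with *shd* (r = 0.843, rho = 0.733, permutation p = 2e-05 and 0.00021, adjusted p = 0.00049 and 0.00306, r = 0.768 without the 2 farthest libraries), and 0.312% of all genes tested had an r with *sro* of that size. It varied with *Fbp1*, a fat body receptor for larval storage proteins whose gene is a known ecdysone target (r = 0.821, rho = 0.750, permutation p = 1e-05, the smallest the permutations can give, and 2e-05, adjusted p = 0.00049 and 0.00098, r = 0.723 without the 2 farthest). *shd* and *Fbp1* had r = 0.644 and rho = 0.522 (permutation p = 0.0037 and 0.0114, adjusted p = 0.0227 and 0.0694, r = 0.433 without the 2 farthest), a size that 4.85% of all genes tested reached with *Fbp1*, against 0.296% for *sro*. *Cyp18a1* had negative r with *sro*, *shd* and *Fbp1* (-0.43, -0.48 and -0.43), none past the threshold after adjustment (permutation, adjusted p = 0.186, 0.109 and 0.186). None of the 7 members had a relation with the summed *roX* level past the threshold (largest r in size -0.33, for *sro*, permutation, adjusted p = 0.385).

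*Fbp1* itself spread over the libraries from 1.12 to 3626 CPM. It lay between 1.12 and 12 CPM in control low animals and had 853, 4.26, 352, 20.7 and 134 CPM in *HR3-RNAi* low animals, with a log2 fold change of 5.80 (standard error 1.78, edgeR adjusted p = 0.0860). That difference was called when only the groups compared were fitted (edgeR adjusted p = 0.0448) and with DESeq2 (adjusted p = 0.000797). In refed animals it was 79.5, 21.0, 546, 33.0 and 15.3 CPM in controls and 744, 274, 45.0, 124 and 309 CPM in *HR3-RNAi* animals (log2 fold change 1.09, standard error 1.44, adjusted p = 0.684). In *TOR-RNAi* animals it was 3626, 4.70, 180, 1056 and 1.86 CPM on low food, and it was higher than in controls (log2 fold change 7.75, standard error 1.93, adjusted p = 0.0183), a call lost without *TOR-RNAi* replicate 1 or control replicate 2, 3 or 5 (adjusted p up to 0.0621). It also rose on refeeding of controls (log2 fold change 4.87, standard error 1.17, adjusted p = 0.0456), a call lost without control low replicate 1, 2, 3 or 5 or control refed replicate 1 or 3 (adjusted p up to 0.130). Without refed replicate 3 the log2 fold change was 2.97. Of the 6 fat body markers, *Fbp1* included, 6 had a log2 fold change above 0 in *TOR-RNAi* animals on low food (median 0.23). After refeeding 1 of the 6 did (median -0.13). *TOR-RNAi* low replicate 5 and refed replicate 4, the libraries lowest in *sro* within their groups, were also the lowest in *Fbp1* there, and whether *Fbp1* accounts for any of the spread of *sro* was not tested.

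**Figure D4:**
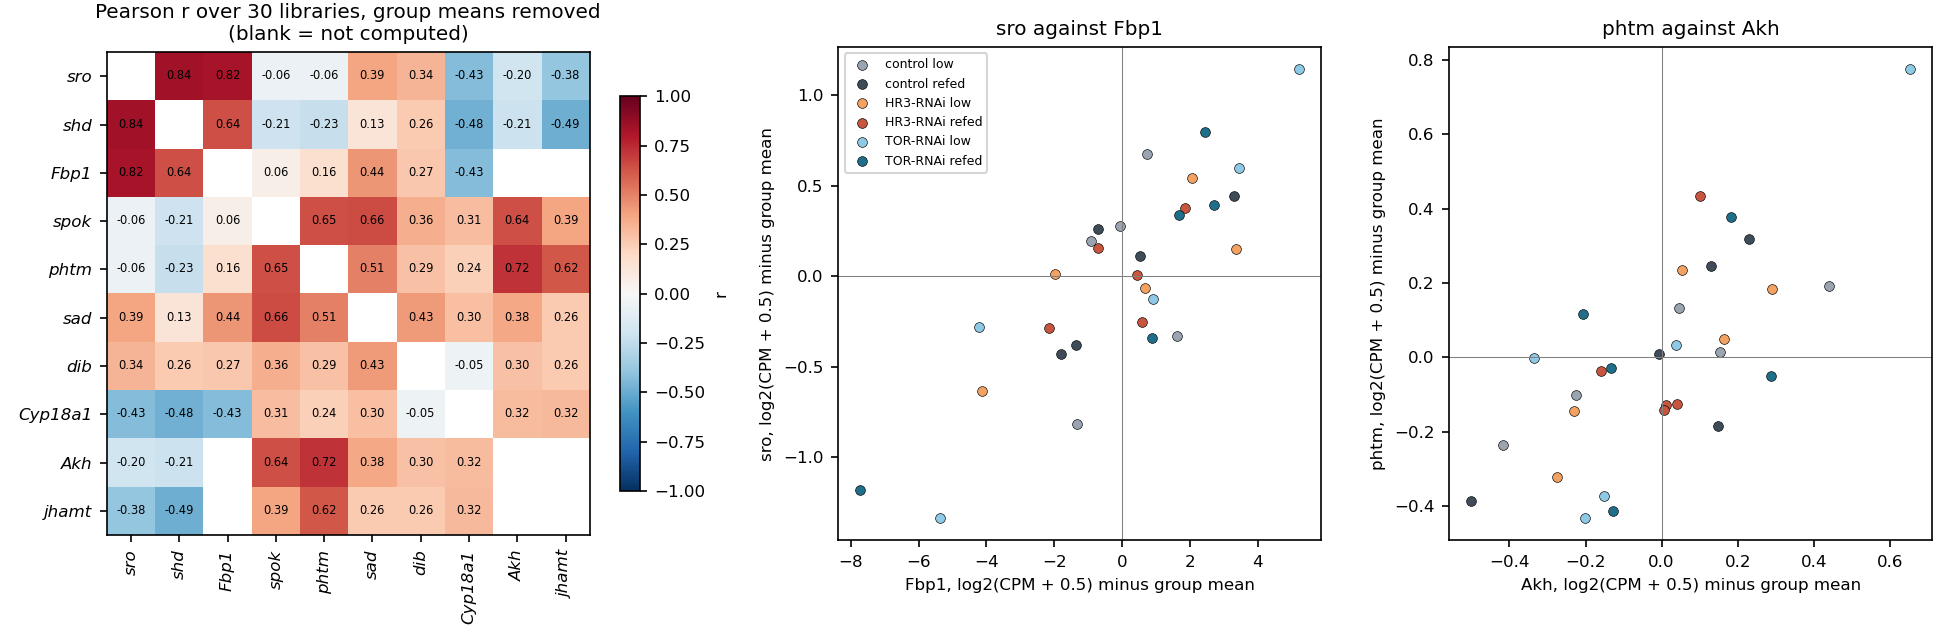
Left, Pearson's r of log2(CPM + 0.5) over 30 libraries after removal of group means, for the 7 genes with *Fbp1*, *Akh* and *jhamt* (blank cells were not computed). Middle and right, the same centred levels of *sro* against *Fbp1* (r = 0.821) and of *phtm* against *Akh* (r = 0.725), 1 point per library, coloured by group.

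By the mean of *sro*, *spok*, *phtm*, *dib* and *sad* after removal of group means, the genes most alike over the 30 libraries among 12171 were *Jon65Aiv* (a midgut serine protease, r = 0.793), *Phae1* (r = 0.774), *CG9467* (r = 0.773), *lncRNA:CR32111* (r = 0.738) and *nyo* (r = 0.737), given as a description. That mean joins genes that did not all vary together, as *sro* had an r of -0.06 with both *spok* and *phtm*. Of the gland regulators, *Ptth* and *tor* were low. *Ptth*, the brain hormone that drives ecdysone synthesis, had 0.145 to 1.05 CPM, and *tor*, its receptor torso, had 0.149 to 0.785 CPM. In refed animals, control libraries had 0.161, 0.373, 0.411, 0.145 and 0.253 CPM of *Ptth*, and its log2 fold change against them came to 1.12 with *HR3-RNAi* and 1.05 with *TOR-RNAi* (standard errors 0.411 and 0.414, edgeR adjusted p = 0.134 and 0.0775).

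Other genes of the pathway were taken from lists chosen by function. Among 7 further synthesis enzymes and cofactors, 6 were tested and 1 rose in *HR3-RNAi* animals on each diet. This was *Cyp6t3*, an oxygenase described as needed for ecdysone synthesis in the gland. The share of all genes called in these comparisons was 2.61% on low food and 3.97% after refeeding. Control low libraries had 0.234, 0.448, 0.528, 0.650 and 0.593 CPM of *Cyp6t3* and *HR3-RNAi* low libraries 5.31, 3.86, 3.56, 3.2 and 3.81 CPM. After refeeding, controls had 0.282, 0.543, 0.299, 0.290 and 0.456 CPM and *HR3-RNAi* animals 3.69, 3.57, 3.65, 2.97 and 3.63 CPM. The groups did not overlap on either diet, and the share of all genes without overlap was not counted. The log2 fold changes were 2.99 (standard error 0.375, edgeR adjusted p = 5.55e-06) and 3.19 (standard error 0.386, adjusted p = 2.42e-06). Its 6 neighbours, taken by position as for *sro*, had log2 fold changes from -0.36 to 0.14 on low food, where *SmF* was called (-0.36, adjusted p = 0.0498). After refeeding they ranged from -0.15 to 0.48, and 0 were called. They were picked after *Cyp6t3* was seen.

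*Cyp6t3* was also higher in refed *TOR-RNAi* animals, at 1.73, 0.941, 1.16, 0.207 and 0.772 CPM (log2 fold change 1.31, standard error 0.381, edgeR adjusted p = 0.0179). There replicate 4 lay below every control, and the call was lost without *TOR-RNAi* replicate 1 or control replicate 3 (adjusted p = 0.0811 and 0.0503). *Cyp6t3* and *sro*, both higher in *HR3-RNAi* animals, had an r of 0.33 within groups.

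In *TOR-RNAi* animals 2 further pathway genes were called higher on both diets, beside 3.71% of all genes called on low food and 17.7% after refeeding. Of the 2, *Eo* lost its call on low food when only the groups compared were fitted (edgeR adjusted p = 0.09995). *Fdx2*, a mitochondrial ferredoxin that passes electrons to oxygenases, ranged from 52.0 to 65.8 CPM on low food against 37.7 to 48.4 CPM in controls (log2 fold change 0.61, standard error 0.102, edgeR adjusted p = 0.000398). After refeeding it ranged from 56.3 to 64.5 CPM against 37.7 to 45.8 CPM (log2 fold change 0.49, standard error 0.102, adjusted p = 0.00143). *Eo*, which encodes an ecdysone oxidase, another route of inactivation, had 22.1, 11.7, 13.8, 14.6 and 8.62 CPM on low food against 5.25 to 9.07 CPM in controls (log2 fold change 1.10, standard error 0.250, adjusted p = 0.00812). After refeeding it had 24.2, 23.3, 22.2, 9.86 and 19.5 CPM against 6.57 to 10.9 CPM (log2 fold change 1.11, standard error 0.249, adjusted p = 0.00278). *Npc1a*, which moves sterol out of endosomes, was 0.26 higher on the log2 scale in refed *TOR-RNAi* animals (standard error 0.0833, adjusted p = 0.0316). That call held in 2 of 10 single omissions, *TOR-RNAi* replicate 4 and control replicate 4, and was lost without any other (adjusted p up to 0.151).

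**Figure D5:**
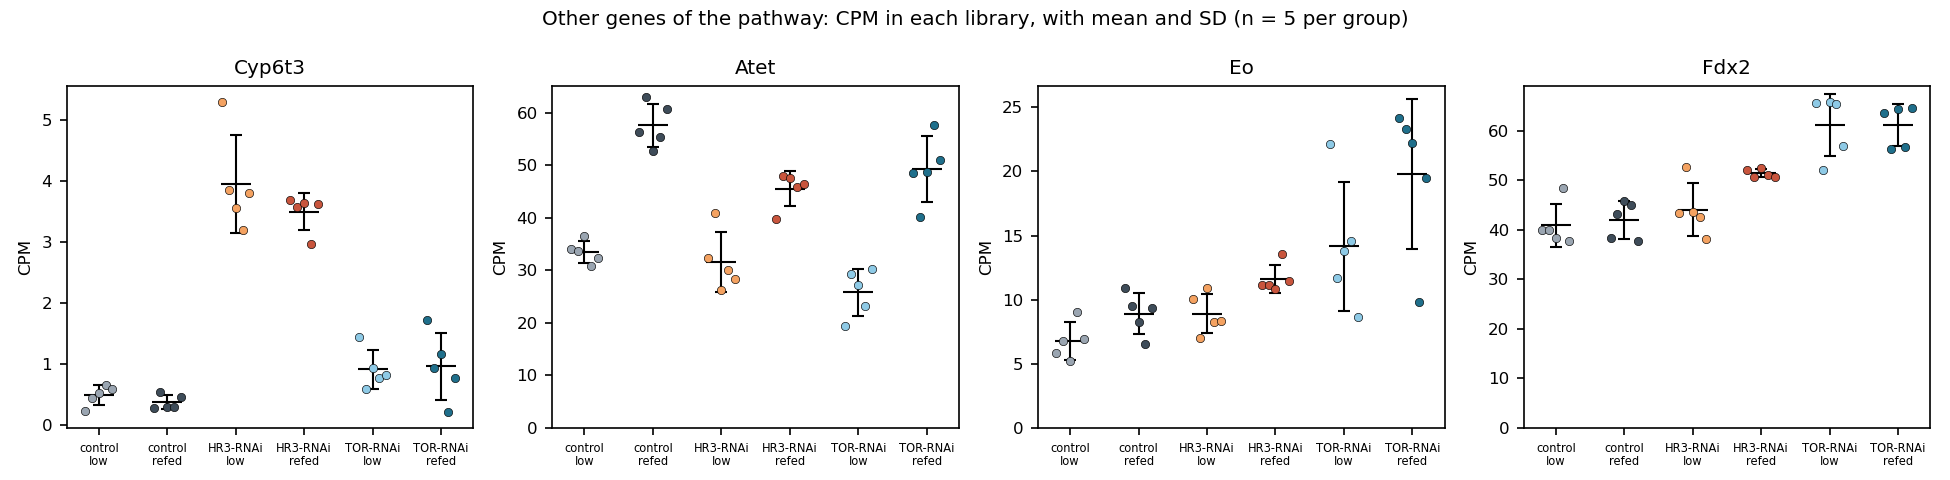
CPM in each library (points, 5 per group), with the group mean and SD, of 4 pathway genes outside the 7. *Cyp6t3* reaches 2.97 to 5.31 CPM in *HR3-RNAi* animals and at most 0.650 CPM in controls. The mean of *Atet* is higher in each refed group than in the low group of its genotype, and the means of *Eo* and *Fdx2* are highest in *TOR-RNAi* animals.

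Of the 4 genes listed for ecdysteroid transport and other inactivation, 1, *Atet*, was called higher after refeeding in each genotype. The call in *TOR-RNAi* animals was lost with the replicate number as a block (edgeR adjusted p = 0.0980). The share of all genes called by diet was 3.83% in controls, 3.44% with *HR3-RNAi* and 0.562% with *TOR-RNAi*. *Atet* encodes an ABC transporter that loads ecdysone into secretory vesicles of gland cells. Which tissue its reads came from in these whole larvae was not tested. Over the 30 libraries *Atet* ranged from 19.4 to 62.9 CPM, beside 3.84 to 9.77 CPM for the gland gene *phtm*. It had 34.1, 33.7, 36.6, 30.8 and 32.3 CPM in control low animals and 56.3, 62.9, 52.8, 55.3 and 60.8 CPM in control refed animals (log2 fold change 0.85, standard error 0.0550, edgeR adjusted p = 8.84e-06). In *HR3-RNAi* animals it went from between 26.2 and 40.9 CPM to between 39.7 and 47.9 CPM (0.55, standard error 0.0916, adjusted p = 0.00584), with 1 low library above 1 refed library. In *TOR-RNAi* animals it went from between 19.4 and 30.2 CPM to between 40.1 and 57.7 CPM (0.91, standard error 0.117, adjusted p = 0.00545). The difference between these responses was not past the threshold (interaction with *HR3-RNAi* -0.30, adjusted p = 0.691, and with *TOR-RNAi* 0.07, adjusted p = 0.876).

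*Atet* was lower than in controls in refed *HR3-RNAi* animals (log2 fold change -0.37, standard error 0.0945, edgeR adjusted p = 0.0201), a call lost without *HR3-RNAi* replicate 1 or control replicate 1 (adjusted p = 0.0545 and 0.0504). It was also lower in *TOR-RNAi* animals on low food (-0.35, standard error 0.0955, adjusted p = 0.0334) and after refeeding (-0.28, standard error 0.0945, adjusted p = 0.0421). On low food that call was lost without *TOR-RNAi* replicate 1 or 4 or control replicate 2, 3 or 4 (adjusted p up to 0.126), and after refeeding without *TOR-RNAi* replicate 2 or 3 or control replicate 1, 2 or 5 (adjusted p up to 0.0944).

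Of 14 regulators of the prothoracic gland, 10 to 12 passed the filter on low counts and were tested, depending on the comparison. *Alk*, a receptor tyrosine kinase, was the only one called, 1 of 10 tested by diet in controls, beside 3.83% of all genes. It fell by 0.42 on the log2 scale on refeeding of controls (standard error 0.0855, edgeR adjusted p = 0.0202), from between 11.7 and 14.6 CPM to between 8.03 and 10.0 CPM. The call was lost without control low replicate 3 or 5 (adjusted p = 0.0513 and 0.0643). Of the 12 genes of the ecdysone receptor and its early response, which include *EcR*, *Eip74EF*, *Eip75B* and *br*, 0 were called by edgeR in the 7 diet and genotype comparisons, with 0 to 3 at an unadjusted p under 0.05 in each. The 3 were in refed *TOR-RNAi* animals, where 3828 of all 12178 genes tested had such a p. Their median log2 fold change lay between -0.02 and 0.24. The corpora cardiaca and corpus allatum genes *Akh* and *jhamt* were called in none of these comparisons, the nearest being *Akh* in *TOR-RNAi* animals on low food (-0.71, standard error 0.212, adjusted p = 0.0588).

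Among the marker lists of other tissues, calls were confined to 3 genes in the 7 diet and genotype comparisons, of which *Fbp1* was described above. *Npc1b*, a sterol uptake gene of the midgut, fell by 2.83 on the log2 scale on refeeding of controls (standard error 0.183, edgeR adjusted p = 8.84e-06), by 2.84 with *HR3-RNAi* (standard error 0.117, adjusted p = 1.24e-07) and by 2.5 with *TOR-RNAi* (standard error 0.158, adjusted p = 5.08e-05). *Jon65Aiv* rose on refeeding of *HR3-RNAi* animals (0.53, standard error 0.122, adjusted p = 0.0344).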

How the data were processed

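RNA was extracted from pools of whole larvae, and libraries were built by a service company. The authors deposited raw read counts per gene, and FPKM values per gene, for 30 libraries. The submitters' processing notes name CASAVA, HISAT2, StringTie, featureCounts, DESeq2 and edgeR without versions. The genome build and the strand setting are not given in the sources used here. Coordinates are from the BDGP6 annotation.

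Counts were fitted with edgeR 4.0.16 (R 4.3.3, TMM scaling, filterByExpr, quasi-likelihood test), with Benjamini-Hochberg adjustment over all genes and a threshold of 0.05. Each diet comparison used the 10 libraries of its genotype, and genotype and interaction contrasts used all 30. Standard errors of log2 fold changes were derived from the test, as the size of the fold change divided by the square root of its F value. CPM of single genes were compared by exact permutation over every split of 5 against 5 (numpy 2.4.6). Spearman's rho came from scipy 1.17.1. DESeq2 1.42.0, size factors, no filter, other sample sets, a replicate block, the *roX* level as covariate and single omissions were the alternatives. The edgeR fit of all 30 libraries was tested on simulated data, for the contrast of refed *HR3-RNAi* against control animals only. The other steps were not tested in this way. Total counts ranged from 19744564 to 33510753. The text names the members, genes of the function and tissue lists with an adjusted p under 0.05 (at most 6 per comparison), *Ptth*, *tor*, *jhamt* and *Akh*, and the 5 genes most like the mean of the gland members. The members and lists were chosen with earlier results of these data known.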

Additional observations from a re-analysis of the deposited data

Results flagged for a closer look

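Among 96 sets of 5 replicates examined, 8 held a library far from the other 4, where chance gives about 1 in 20. In refed *HR3-RNAi* animals, replicate 4 was high in *spok* (9.985 CPM, others 6.9 to 7.26), *phtm* (9.772 CPM, others 6.382 to 6.9) and *Eo* (13.56 CPM, others 10.87 to 11.43) and low in *Cyp6t3* (2.974 CPM, others 3.57 to 3.689). Replicate 1 of the same group was low in *Atet* (39.72 CPM, others 45.85 to 47.88). *TOR-RNAi* low replicate 4 was high in *dib* (0.4451 CPM, others 0.04962 to 0.1337), which is 11 counts. Control low replicate 4 was high in *Fdx2* (48.39 CPM, others 37.74 to 40.02), and control refed replicate 3 was high in *Fbp1* (546.3 CPM, others 15.35 to 79.5).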

How the results depend on the processing

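The 60 member fold changes were refitted 1082 times. In 1066 refits the call stood or there was none to lose, with 87 sign changes among uncalled values; 15 refits ended a call, 1 added one and 0 reversed one. Without the filter on low counts, 0 members were called in *HR3-RNAi* low animals (*sro*, adjusted p = 0.0603). Over single omissions the members called ranged from 0 to 1 for *HR3-RNAi* on low food, for *HR3-RNAi* after refeeding and for *TOR-RNAi* after refeeding, and the permutation count from 3 to 9. Deviations of same-numbered low and refed replicates had r from -0.73 to 0.45. In control, *HR3-RNAi* and *TOR-RNAi* animals, r was 0.39, 0.44 and 0.45 for number 1 and -0.73, 0.11 and 0.41 for number 4. These mixed values do not settle whether the numbers pair the samples. With a replicate block *sro* was 1.55 on low food (adjusted p = 0.0315) and 1.47 after refeeding (adjusted p = 0.0292), and the block changed no member's call. Counts over all genes that moved by over 1.5 times were, with DESeq2, 758 against 436 (diet in controls), 738 against 400 (diet, *HR3-RNAi*), 280 against 65 (diet, *TOR-RNAi*), 510 against 318 (*HR3-RNAi* low), 811 against 484 (*HR3-RNAi* refed) and 683 against 452 (*TOR-RNAi* low). With only the groups compared, they were 1263 (*HR3-RNAi* refed), 219 (*TOR-RNAi* low) and 1338 against 2158 (*TOR-RNAi* refed). With the block, they were 209 (diet in controls) and 30 (diet, *TOR-RNAi*). For the latter, 1 fit of all libraries gave 339 and the *roX* covariate 119. For the interactions, fitting only the groups compared called 1 (*HR3-RNAi*) and the *roX* covariate 22 (*TOR-RNAi*) against 0. Single omissions gave 289 to 443 (diet in controls), 254 to 419 (diet, *HR3-RNAi*), 38 to 82 (diet, *TOR-RNAi*), 301 to 481 (*TOR-RNAi* low), 1438 to 2776 (*TOR-RNAi* refed) and 0 to 71 (*TOR-RNAi* interaction). Fitting only the groups compared ended the calls of *Cyp6t3* (adjusted p = 0.119) and *Npc1a* (0.121) in refed and of *Atet* (0.179), *Eo* (0.09995) and *Fbp1* (0.0960) in low *TOR-RNAi* animals. *Fbp1* gained calls in *HR3-RNAi* low animals with that fit (0.0448) and with DESeq2 (0.000797), and in refed *TOR-RNAi* animals with DESeq2 (0.0497). The block ended those of *Atet* by diet in *TOR-RNAi* animals (0.0980) and in refed *TOR-RNAi* animals (0.0511), and of *Alk* (0.0562) and *Fbp1* (0.227) by diet in controls. Size factors ended those of *Atet* in low (0.0583) and refed (0.0525) *TOR-RNAi* animals. By diet in controls, 1 fit of all libraries ended those of *Alk* (0.0776) and *Fbp1* (0.167), the *roX* covariate also ended them (0.0752 and 0.1997), and *Fbp1* lost its call without the filter (0.0518). *Fdx2* gained a call in refed *HR3-RNAi* animals with only the groups compared (0.0287) and with the *roX* covariate (0.0199). The causes were not tested. *dib* and *Hr3* were limited by depth.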
